A study of Homo sapiens with 9 samples.

Results

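Genes of 25 to 50 kb make up 686 of the 1473 genes (46.6%) in the authors' tables of averaged nascent RNA profiles. They were not selected one by one. The tables give mean profiles for genes of at least 25 kb (1473 genes), at least 50 kb (787) and at least 100 kb (308), and the profile of the 686 genes was obtained by subtracting the 787 longer genes from the 1473, row by row and library by library. That the 787 genes are among the 1473 is inferred from the tables' names; no row of the derived profile was negative. The same step gave 479 genes of 50 to 100 kb for comparison. The tables name no gene, so results concern the mean profile by distance from the transcription start site (TSS), and no single gene is described.

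The assay was BrU-seq: bromouridine given for a short pulse is built into RNA under synthesis, and that RNA is captured with an antibody against the label before sequencing. The cells were RPE1, an immortalised human retinal pigment epithelium line, all with the background named iCas9 p53/puro-dKO in the labels, so that the parental cells carry it too. The lines were STK19-KO (KO), the KO with an STK19-TY transgene (rescue), and cells without the STK19 knockout (WT). Each was mock-treated or given 12 J/m2 of UV-C, with a 30 min pulse of 2 mM bromouridine that began 2.5 h or 15.5 h after UV-C by the sample labels (here 3 h and 16 h). Each of the 9 combinations had 1 library, so no difference between 2 libraries has a replicate check. The promoter of the transgene and the number of KO clones are not given in the sources used here, and cell type markers could not be checked in profiles without gene names.

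UV-C damages DNA, and RNA polymerase II stalls at the damaged bases. A lesion blocks every polymerase behind it, so nascent RNA is typically lost with distance from the TSS, and a long gene is more likely to hold a lesion than a short one. Transcription-coupled repair removes the lesion together with the stalled polymerase, after which polymerases released from the promoter refill the gene. The series asks what STK19 contributes to that recovery, and genes of this length show how a comparatively short template fares. The first 25 kb lie inside every gene, all ends fall between 25 and 50 kb, and signal beyond 50 kb lies past every end. Whether that signal comes from other transcription units or from transcription running on past these ends was not tested.

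Signal is the mean per 200-bp row, as scaled by the authors to a total that is not stated. Summed over -5 to 100 kb, the class signal of irradiated libraries was between 1.06 and 1.15 times that of their own mock. Comparisons of levels rest on this scaling and a fall in total nascent RNA would not show, whereas ratios within a library do not depend on it. Summed signal consisted of whole multiples of a library's step, which ran from 0.08 in rescue at 16 h to 0.14 in KO at 16 h. No label or header says what 1 step stands for, so the depth behind the profile is unknown. The profile declined where the length class says that the genes end. In unirradiated KO cells the 25 to 30 kb window had 4.42 and the 45 to 50 kb window 2.83. These windows had 4.58 and 2.78 in rescue and 3.88 and 2.78 in WT, with little further decline beyond 50 kb.

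**Figure D1:**
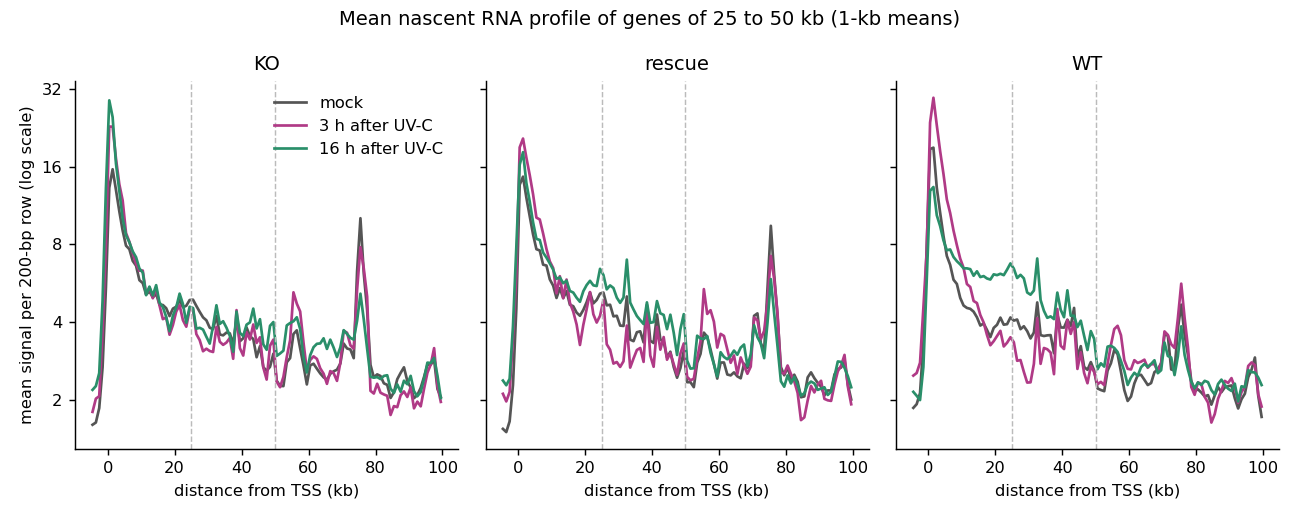
Mean signal per 200-bp row (log scale) against distance from the TSS in kb for the 686 genes, in 1-kb means, with a panel for each line and a curve for each condition; dashed lines mark 25 and 50 kb. The KO curve at 16 h tops the other KO curves at the TSS, while the WT curve at 16 h lies lowest at the TSS and highest from 15 to 30 kb.

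Next to the TSS, where polymerases start and pause, the lines parted by 16 h. From 0 to 1 kb, KO cells had 13.2 in mock, 22.9 at 3 h and 28.9 at 16 h. Rescue cells had 13.6, 18.99 and 16.3 at the same times, and WT cells 18.7, 23.7 and 12.9. All 3 libraries at 3 h stood above all 3 mock libraries, whereas at 16 h KO was the highest of the 9 libraries and WT the lowest. Relative to its own mock, the first 1 kb stood at 1.73 in KO, 1.40 in rescue and 1.27 in WT at 3 h, and at 2.18, 1.19 and 0.689 at 16 h.

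Signal just before the TSS, which can include divergent transcripts since the use of strand is not given, followed the same order at 16 h. From -1 to 0 kb KO libraries had 5.43 (mock), 8.01 (3 h) and 13.2 (16 h). Rescue had 4.499, 6.02 and 7.78, and WT had 7.88, 7.502 and 5.82. KO and rescue were thus highest at 16 h and lowest in mock, and WT the other way round. Between 1 and 5 kb, in contrast, the highest library was WT at 3 h, with 21.5 against 12.9 in WT mock. The other lines at 3 h had 16.4 (KO) and 16.3 (rescue), against mock values of 12.1 and 11.4.

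The peak within 5 kb of the TSS sat in the row at 400 bp in all 3 KO libraries, with heights of 16.8 (mock), 29.4 (3 h) and 37.1 (16 h). In WT it sat at 600 bp in mock (24.4), at 1200 bp at 3 h (30.7) and at 400 bp at 16 h (15.999). Signal from 0 to 1 kb over that from 1 to 5 kb, called the start ratio here, was 1.095 (mock), 1.40 (3 h) and 1.80 (16 h) in the KO line. In WT it was 1.455 in mock, 1.10 at 3 h and 1.24 at 16 h, and in rescue 1.19, 1.16 and 1.22. Its log2 difference from mock was 0.35 at 3 h and 0.72 at 16 h in KO, and -0.40 and -0.23 in WT. Over the 3 lines the mean change was -0.03 ± 0.38 at 3 h and 0.17 ± 0.49 at 16 h (SD, n = 3 lines; exact sign-flip permutation test, two-sided, p = 0.75 for each, with 0.25 the smallest p that 3 lines allow). These means depended on single lines. At 3 h the mean was -0.22 without KO and 0.16 without WT, and at 16 h it was -0.10 without KO and 0.37 without WT.

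**Figure D2:**
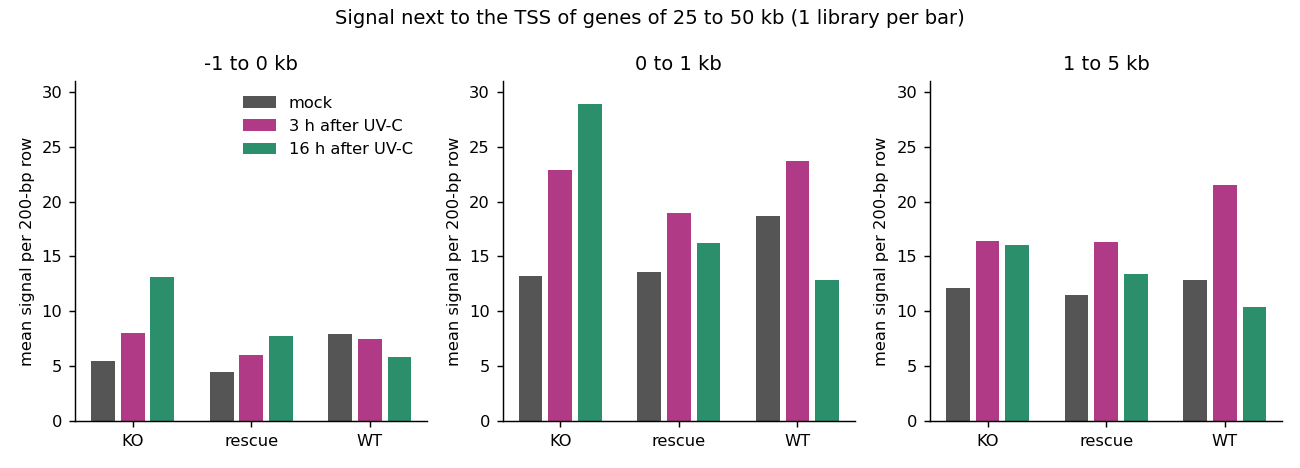
Mean signal per 200-bp row from -1 to 0, 0 to 1 and 1 to 5 kb of the TSS of the 686 genes, 1 bar for each library. From 0 to 1 kb the KO bars step up to 28.9 at 16 h, while the WT bar at 16 h is the lowest of all at 12.9.

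Inside the genes the signal was higher in the first 5 kb than from 20 to 25 kb in all 9 libraries, and how much higher differed with time after UV. The first 5 kb had 17.7 in KO, 16.8 in rescue and 21.96 in WT at 3 h, against 12.3, 11.9 and 14.0 in their mocks. These groups did not overlap. From 20 to 25 kb, the last stretch inside every gene, the 3 h libraries had 4.28, 4.44 and 3.45, against 4.69, 4.94 and 4.01 in mock. Each 3 h value lay below its own mock, at 0.912 in KO, 0.898 in rescue and 0.860 in WT, but the groups overlapped. At 3 h the mean log2 change at 20 to 25 kb was -0.17 ± 0.04 (SD, n = 3 lines; exact sign-flip permutation test, p = 0.25), and -0.29 with libraries set to equal class totals.

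The ratio of the first 5 kb to 20 to 25 kb, called the start-to-far ratio here, needs no scaling. At 3 h it was 4.13 in KO, 3.80 in rescue and 6.37 in WT, against 2.63, 2.40 and 3.50 in mock. Every line at 3 h stood above every mock. The log2 change was 0.65, 0.66 and 0.86, with a mean of 0.73 ± 0.12 (SD, n = 3 lines; higher in 3 of 3 lines, exact sign-flip permutation test, p = 0.25, the smallest possible). The signal-weighted mean position within the first 25 kb lay nearer the TSS at 3 h by similar distances, with differences from mock of -1.35 kb in KO, -1.33 kb in rescue and -1.41 kb in WT. KO minus WT in the log2 change of the ratio was -0.21, which became -0.59 with medians over rows and -0.66 after subtraction of the 75 to 100 kb level, so its size at 3 h depended on how it was measured.

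At 16 h the 3 lines had taken different courses. The start-to-far ratio was 4.06 in KO, close to its 3 h value of 4.13. It was 2.42 in rescue, against 2.40 in rescue mock, and 1.73 in WT, against 3.50 in WT mock. WT at 16 h was the flattest of the 9 profiles, and KO at 16 h the third steepest, after WT and KO at 3 h. The log2 change from mock was 0.63 in KO, 0.01 in rescue and -1.02 in WT. Since the lines went different ways, the mean over them was -0.13 ± 0.83 (SD, n = 3 lines; exact sign-flip permutation test, p = 1). Without the WT line it was 0.32, without KO -0.50. KO minus WT was 1.65, between 1.22 and 2.30 in the alternatives computed, and rests on 4 libraries, 1 for each line and condition, so it has no replicate check of its own.

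Split into 5-kb windows, the 0 to 25 kb signal shows where the profiles differed. In KO the first 5 kb held 36.5% in mock, 45.4% at 3 h and 45.9% at 16 h. In rescue these shares were 35.6%, 42.4% and 36.4%, and in WT 43.4%, 50.1% and 29.6%. The last 5 kb held 13.9%, 10.98% and 11.3% in KO, 14.8%, 11.2% and 15.03% in rescue, and 12.4%, 7.87% and 17.2% in WT. Rescue at 16 h was within 1 point of its mock in both windows, while WT had a smaller first and a larger last share than its mock.

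**Figure D3:**
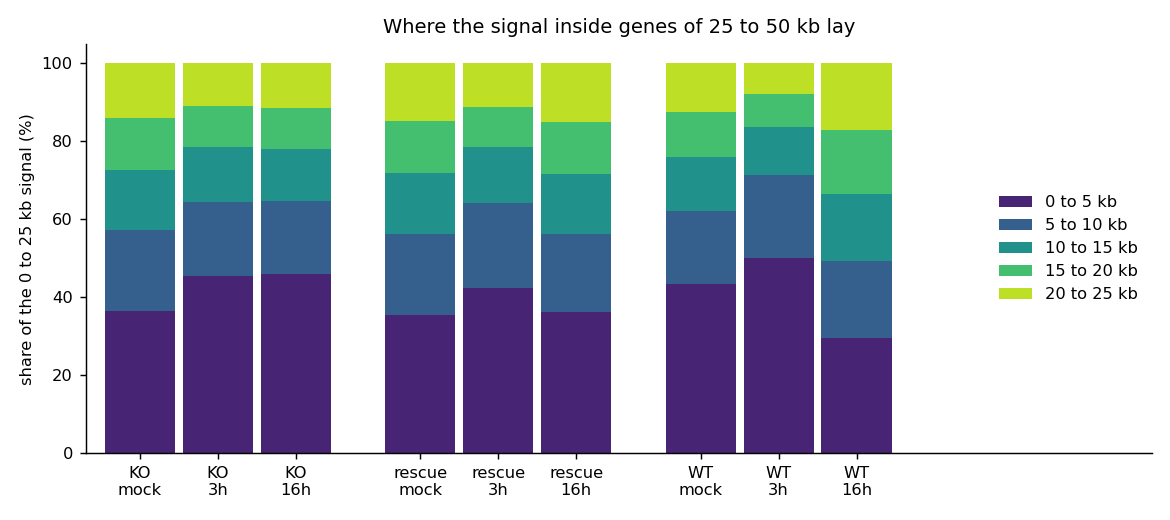
Share of the 0 to 25 kb signal in each 5-kb window (percent, stacked to 100) for the 9 libraries, in groups of mock, 3 h and 16 h for each line. The first 5 kb holds 45.9% in KO, 36.4% in rescue and 29.6% in WT at 16 h.

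In levels, WT at 16 h was above its mock from 5 to 25 kb. It had 7.18 against 6.05 from 5 to 10 kb, 6.32 against 4.44 from 10 to 15 kb, 5.97 against 3.76 from 15 to 20 kb and 6.28 against 4.01 from 20 to 25 kb, the last being a ratio of 1.57. The largest 1-kb ratio in the first 25 kb, 1.67, lay in the window that began at 18 kb. At equal class totals the ratio from 20 to 25 kb was 1.38, and all 4 windows were still above 1. KO at 16 h lay near its mock over the same stretch, with ratios of 1.09 from 5 to 10 kb, 1.05 from 10 to 15 kb, 0.950 from 15 to 20 kb and 0.977 from 20 to 25 kb. At equal totals these were 0.961, 0.927, 0.840 and 0.864, so that the first 2 turned below mock. Rescue was between 1.11 and 1.17 in these windows, and between 0.988 and 1.04 at equal totals. From 20 to 25 kb the mean log2 change over the lines was 0.28 ± 0.34 (SD, n = 3 lines; higher in 2 of 3, exact sign-flip permutation test, p = 0.50), 0.10 at equal totals, 0.44 without KO and 0.09 without WT.

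Between 25 and 50 kb, where gene after gene ends, the 3 h libraries were lowest relative to their mocks just past 25 kb. From 25 to 30 kb they had 3.54 in KO, 3.36 in rescue and 2.78 in WT, against 4.42, 4.58 and 3.88 in mock, which is 0.801, 0.733 and 0.716 of mock. From 45 to 50 kb, at the upper length limit of the class, the ratios were 1.07, 1.05 and 0.947. All 3 lines therefore had their lowest 5-kb ratio of the first 50 kb from 25 to 30 kb. As a share of the 0 to 25 kb level, the 25 to 50 kb level was 43.1% in KO, 39.8% in rescue and 34.7% in WT at 3 h, against 53.5%, 55.4% and 55.5% in mock. The mean log2 change was -0.49 ± 0.18 (SD, n = 3 lines; lower in 3 of 3, exact sign-flip permutation test, p = 0.25). Set against 15 to 25 kb in place of 0 to 25 kb, the mean was -0.05 (exact sign-flip permutation test, p = 0.50), and the lines no longer agreed. In KO the 25 to 50 kb level stood at 0.931 of mock, above the 0.907 of 15 to 25 kb. In rescue it stood below, at 0.854 against 0.902, and in WT likewise at 0.848 against 0.917.

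At 16 h the same stretch was above mock in WT, with 5.91 against 3.88 from 25 to 30 kb (a ratio of 1.52), and with 5.34 against 3.79 from 30 to 35 kb (1.41). In rescue the ratios were 1.19 and 1.33, and in KO 0.875 and 1.045, which at equal totals became 0.774 and 0.924. From 45 to 50 kb the 3 lines were alike, with ratios of 1.295 in KO, 1.36 in rescue and 1.28 in WT. The 25 to 50 kb level was 47.1% of the 0 to 25 kb level in KO, 59.6% in rescue and 64.4% in WT, against 53.5%, 55.4% and 55.5% in mock. The lines differed in direction, and their mean log2 change was 0.05 ± 0.21 (SD, n = 3 lines; exact sign-flip permutation test, p = 0.75); it was -0.04 without WT and 0.16 without KO.

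Beyond 50 kb, past the end of every gene in the class, KO cells had a 50 to 100 kb level of 2.92 (mock), 2.91 (3 h) and 2.98 (16 h). Rescue had 2.94, 3.03 and 2.85, and WT 2.48, 2.72 and 2.59. The ratios to mock were thus between 0.972 and 1.096, and below 1 in every line at both times when libraries were set to equal totals. The mean log2 change was 0.06 ± 0.07 at 3 h and 0.02 ± 0.05 at 16 h as deposited (SD, n = 3 lines; exact sign-flip permutation test, p = 0.50 and p = 0.75), against -0.07 and -0.16 at equal totals. Without WT the means were 0.02 and -0.0036. This level is not small beside that inside the genes. It amounted to between 59.4% and 62.1% of the 20 to 25 kb level in mock. At 3 h it was higher in every line, at 68.1% in KO, 68.3% in rescue and 78.9% in WT, and it was 65.1% in KO, 49.5% in rescue and 41.2% in WT at 16 h. With the 75 to 100 kb level subtracted, the mean log2 change at 20 to 25 kb was -0.36 at 3 h and 0.68 at 16 h. At 16 h the change was then positive in every line, KO included. The subtracted level itself differed between lines and times. It was 2.92 in KO mock and 2.59 in KO at 16 h, 2.89 and 2.59 in rescue, and 2.36 and 2.40 in WT. It includes the feature from 75 to 80 kb described under other observations. How much of the signal in the far windows inside the genes comes from other transcription was not tested.

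**Figure D4:**
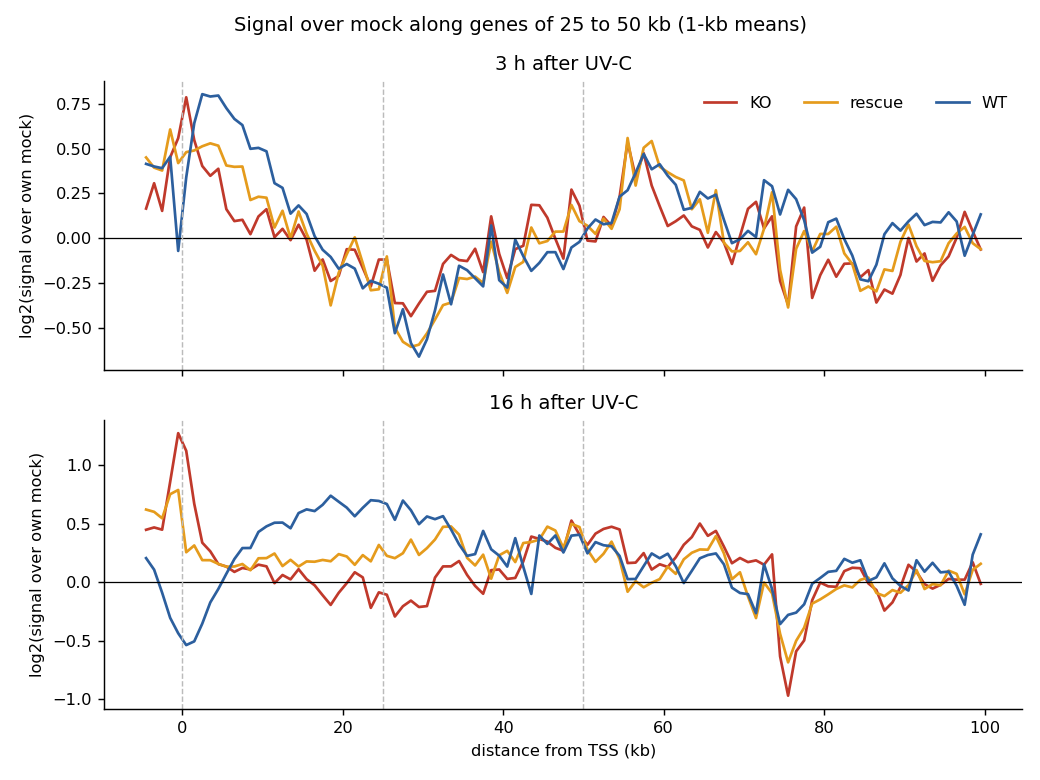
Log2 ratio of signal to the same line's mock against distance from the TSS in kb, in 1-kb means, at 3 h (top) and 16 h (bottom); dashed lines mark 0, 25 and 50 kb. At 3 h the 3 curves run alike from positive values near the TSS to a low between 25 and 35 kb, while at 16 h KO and WT run in opposite directions over the first 30 kb.

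The 21 windows of 5 kb from -5 to 100 kb were tested together with those of the longer classes by limma, with line and condition as terms, and disagreement between the lines as the error. At 3 h against mock, 1 of the 21 windows passed (adjusted p under 0.05), whereas 27% of all 63 windows did (7.94% higher and 19% lower). The passing window lay past the genes, from 55 to 60 kb, at 4.04 in KO, 4.26 in rescue and 3.33 in WT at 3 h, against 3.09, 3.08 and 2.56 in mock (log2 change 0.40, SE 0.09, limma adjusted p = 0.042). It no longer passed at equal totals, without moderation of the variances or when any 1 line was left out, and 3 windows passed without the KO 16 h library. The first 5 kb had a larger log2 change of 0.55 (SE 0.22, limma adjusted p = 0.12), and 5 to 10 kb one of 0.35 (SE 0.12, limma adjusted p = 0.087). In the longer classes 8 of 21 windows passed in each, 2 higher and 6 lower.

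At 16 h against mock limma called 0 of the 21 windows (0% of all 63), with 4 at an unadjusted p under 0.05, all of them beyond 40 kb. KO against WT gave 0 of 21 windows (0% of all 63) over the 3 conditions, with 2 at an unadjusted p under 0.05. Rescue against KO gave 0 of 21 (0% of all 63), with 0 unadjusted. Both contrasts ask for a line difference held over the conditions, and one that changed with condition counts as error. From 0 to 5 kb, KO over WT was 0.879 in mock, 0.805 at 3 h and 1.72 at 16 h. Without the 16 h libraries, limma gave KO against WT 6 windows at an unadjusted p under 0.05 and called 0. A response particular to KO was called in 0 of 21 windows at 3 h and 0 at 16 h (0% of all 63 each, 0 unadjusted in the 21 windows). Its highest estimate at 16 h was 0.66, upstream of the TSS from -5 to 0 kb. The estimate from 0 to 5 kb was nearly the same at 0.66 (SE 0.40, limma adjusted p = 0.46). The lowest was -0.61 from 25 to 30 kb (SE 0.26, limma adjusted p = 0.46). This fit left 2 residual degrees of freedom. Without moderation these tests called 0 windows as well.

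Before irradiation the KO and rescue profiles were nearly the same. With libraries at equal totals, the median absolute log2 difference between KO mock and rescue mock was 0.03 over the 21 windows, the smallest of all 36 pairs of libraries, and the largest single difference was 0.20, upstream of the TSS. Against WT mock the medians were 0.11 for KO and 0.12 for rescue. KO and rescue mock had 0.708 and 0.727 times the WT signal from 0 to 1 kb, but 1.17 and 1.23 times from 20 to 25 kb. The WT genes were thus steeper before UV, and part of any change measured from WT mock rests on that 1 library. At 16 h KO and rescue differed by a median of 0.12, rescue and WT by 0.11, and KO and WT by 0.23.

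In the longer genes the same 25 kb, inside every gene of each class, differed more from mock at 3 h. The log2 change of the start-to-far ratio was 0.65, 0.66 and 0.86 (KO, rescue and WT) in genes of 25 to 50 kb. In each line it was lower than in genes of 50 to 100 kb, by 0.07, 0.16 and 0.17, and than in genes of 100 kb or more, by 0.27, 0.47 and 0.51. The mean difference from the genes of 100 kb or more was -0.42 ± 0.13 (SD, n = 3 lines; lower in 3 of 3, exact sign-flip permutation test, p = 0.25, the smallest possible). That from genes of 50 to 100 kb was -0.14 ± 0.06 (p = 0.25 by the same exact test). The gap lay mostly at the TSS: the first 5 kb stood at 1.43, 1.42 and 1.57 times mock in genes of 25 to 50 kb and at 1.80, 1.905 and 2.12 in genes of 100 kb or more, whereas 20 to 25 kb stood at 0.912, 0.898 and 0.860 against 0.952, 0.869 and 0.818.

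At 16 h the log2 change of the ratio again lay below that of the longer classes in each line. It was lower than in genes of 50 to 100 kb by 0.33 in KO, 0.37 in rescue and 0.10 in WT, with a mean difference of -0.27 ± 0.15 (SD, n = 3 lines; exact sign-flip permutation test, p = 0.25). That gap was wider than at 3 h in KO and rescue and narrower in WT. Against genes of 100 kb or more the gap was 0.08 in KO, 0.36 in rescue and 0.08 in WT, narrower than at 3 h in all 3 lines, with a mean difference of -0.17 ± 0.16 (SD, n = 3 lines; exact sign-flip permutation test, p = 0.25). Whether the gaps differ between 3 h and 16 h was not tested. From 20 to 25 kb, KO stood at 0.977 of mock in genes of 25 to 50 kb, 0.801 in genes of 50 to 100 kb and 0.750 in genes of 100 kb or more. Rescue stood at 1.17, 1.01 and 0.834, and WT at 1.57, 1.77 and 1.71. In KO and rescue the ratio was thus highest in the shortest class, and in WT it was lowest there; these orders were not tested. From 0 to 1 kb the KO ratio at 16 h was 2.18, 2.14 and 1.57 in the 3 classes, so that the signal next to the TSS was as far above mock in genes of 25 to 50 kb as in those of 50 to 100 kb.

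**Figure D5:**
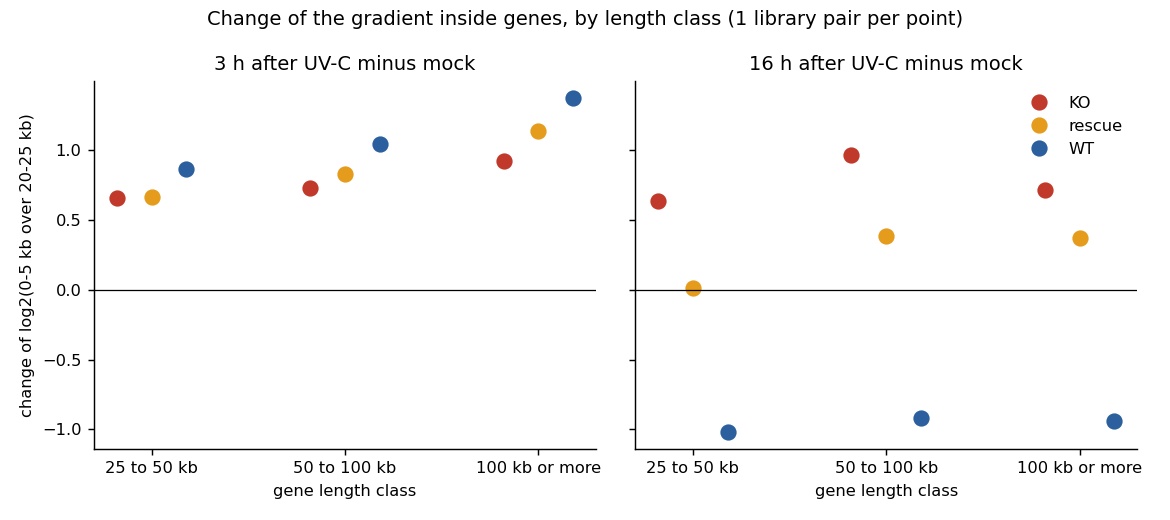
Change from mock of log2(0 to 5 kb over 20 to 25 kb) at 3 h (left) and 16 h (right) for each length class, 1 point for each line. At 3 h the points of all lines are lowest in the class of 25 to 50 kb, and at 16 h KO lies at 0.63, rescue at 0.01 and WT at -1.02 in that class.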

How the data were processed

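BrU-seq signal of 9 libraries was taken from 3 tables of averages. By their names, these are averages over the genes of a length class, in 526 rows of 200 bp by distance from the TSS. The signal was taken as scaled by the authors to an unstated total, and how the averages were computed is not known. How the genes were chosen is not given beyond length and the words TOP3000. Per the submitters' processing notes, STAR 2.7.7a, HOMER 4.8.2, Trim Galore 0.6.5, R 4.0.5 and FastQC 0.11.9 were among the tools, and hg38 and GRCh38 the named builds; the step each served is not given. The 9 library files were not used, since their identifiers carry no gene ends.

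Profiles of disjoint classes were obtained by subtraction of gene-weighted means. In both derived classes no row of any library was negative. In the 3 deposited tables of averages, 100% of summed values were whole multiples of the library's step, to within 0.0005. The step was searched for in those same values, so this is no check of the derived classes. A window holds the rows from its start up to, and not including, its end. Groups came from the sample titles. Single values were tested by exact sign-flip permutation over the 3 lines, which stand in for repeats although rescue derives from KO. Windows were tested with limma 3.58.1 (R 4.3.3) on log2(signal + 0.1) over 63 windows, with Benjamini-Hochberg adjustment and 4 residual degrees of freedom. Neighbouring windows share genes, so their p-values are not independent. The fit was tested on simulated data. Alternatives were the pseudocount, the scaling, medians over rows, a filter on low windows, unmoderated variances, other windows, a subtracted far level, the undivided class of 25 kb or more and each line or condition left out. Every window was reported, so no rule for named genes applied. The members, measures and tests were chosen with earlier results of these data known.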

Additional observations from a re-analysis of the deposited data

Results flagged for a closer look

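KO and WT moved in opposite directions from their own mocks in 6 of the measures, each time with 1 library pair a line, so that these differences were not tested. At 16 h the log2 start-to-far ratio changed by 0.63 in KO and -1.02 in WT. The log2 level from 20 to 25 kb changed by -0.033 in KO and 0.65 in WT, the 25 to 50 kb level relative to 0 to 25 kb by -0.18 in KO and 0.22 in WT, and the first 1 kb relative to the next 4 kb by 0.72 in KO and -0.23 in WT. At 3 h the last of these measures changed by 0.35 in KO and -0.40 in WT. The level from 50 to 100 kb at 3 h changed by -0.0014 in KO and 0.13 in WT, both small beside the differences inside the genes. At equal class totals this level stood below mock in both lines, at 0.944 in KO and 0.953 in WT. With the 75 to 100 kb level subtracted, KO no longer moved opposite to WT at 16 h in the level from 20 to 25 kb. The same held for the 25 to 50 kb level relative to 0 to 25 kb. For both, the log2 change was then positive in every line, with means of 0.68 and 0.61 (exact sign-flip permutation test, p = 0.25 for each).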

How the results depend on the processing

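With 1 library per line and condition, no exact sign-flip test over 3 lines can pass 0.05, and a kept direction says little about stability. Of 136 recomputed values, 113 were labelled as the same. For sign-flip results this meant the same sign of the mean, whatever the p. For KO minus WT it meant a shift no larger than the SD over the lines. For limma it meant an equal or similar count of called windows, in most cases 0 and 0. The count of windows called at 3 h was 0 in place of 1 at equal class totals, without moderation and in each fit without 1 line (0 to 0), and 3 without the KO 16 h library, a choice made after seeing the data; the cause was not tested. The sign-flip tests paired each irradiated library with the mock of its own line, and limma held line as a term. Pairing by replicate was not possible, because each group has 1 library and the deposited columns carry only the number 1. The undivided class of 25 kb or more, which holds longer genes by construction, turned the 50 to 100 kb level to -0.28 at 3 h and -0.046 at 16 h and the gene end signal at 16 h to -0.048. Equal totals turned the 50 to 100 kb level to -0.066 and -0.16. Medians over rows turned the gene end signal at 16 h to -0.0013, and 15 to 25 kb as its base to -0.0087. With 0 to 2 over 2 to 6 kb the start ratio at 3 h was 0.0076. KO minus WT of the 3 h start-to-far change moved to -0.59 with medians over rows and to -0.66 with the 75 to 100 kb level subtracted. That subtraction turned the differences from genes of 100 kb or more to 2.00 at 3 h and 1.27 at 16 h, because 75 to 100 kb lies inside those genes. Without 1 line each, means ranged from -0.22 to 0.16 for the start ratio at 3 h, from -0.10 to 0.37 for that at 16 h, from -0.50 to 0.32 for the start-to-far change at 16 h, from -0.039 to 0.16 for the gene end signal at 16 h and from -0.0036 to 0.047 for the 50 to 100 kb level at 16 h. The pseudocount and the low-level filter changed no count of called windows.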

Other observations

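Past 25 kb, narrow features stood out from the profile. Of 485 rows beyond 3 kb, 12 were at 1.5 times the running median or more, none of them between 3 and 25 kb. Of the 12, 5 lay where the genes end, between 32.4 and 41.2 kb, and 7 beyond 50 kb, of which 5 were from 75 to 76 kb. From 75 to 80 kb the signal was 5.17 in KO mock and 4.98 in rescue mock, against 3.15 in WT mock. KO and rescue exceeded WT there in every condition, by 1.36 and 1.30 times at 3 h and 1.23 and 1.28 times at 16 h, and limma gave KO over WT a log2 difference of 0.48 (SE 0.11, limma adjusted p = 0.35, unadjusted p = 0.0055). In both lines the feature was lower at 16 h, at 0.667 of mock in KO and 0.722 in rescue, against 0.889 in WT. Which gene or genes carry it is not known from these tables.

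Farther upstream of the TSS, from -5 to -1 kb, KO had 1.94 in mock, 2.38 at 3 h and 2.95 at 16 h. Rescue had 1.74, 2.42 and 2.72, and WT 2.299, 3.08 and 2.22. At 16 h KO and rescue thus stood at 1.52 and 1.56 times mock and WT at 0.965, so that rescue was nearer to KO than to WT. With libraries at equal totals the ratios were 1.35, 1.40 and 0.850.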
